A study of Caenorhabditis elegans with 8 samples.

Results

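The furrow collagens of Caenorhabditis elegans are dpy-2, dpy-3, dpy-7, dpy-8, dpy-9 and dpy-10. They were found on the arrays by the gene name attached to each probe, without regard to any measured value. All 6 genes were represented, by 10 of the 43603 probes other than controls and out of 24889 named genes or transcripts. The measurements came from whole L4 hermaphrodites, described by the study as sleeping, grown at 21.5 °C. There were 4 samples of aptf-1(gk794), which carries a deletion in the gene of an AP2 transcription factor and, per the study, shows no sleep immobility, and 4 samples of N2, the wild type. Each sample held about 200 animals, and 200 ng of its RNA was labelled with Cy3 and hybridized to 1 single-color Agilent array. The study used this comparison to look for genes under the control of aptf-1. Genotype and sleep behavior therefore changed together, and every tissue of the animal contributed RNA.

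Cuticle collagens are made by the epidermis and secreted once in every larval stage, when a new cuticle is built under the old one before the molt. Sleep in these larvae occurs in that same period. The furrow collagens form the circumferential furrows that divide the cuticle into annuli, and loss of any of them removes the furrows and gives a short, stout (Dumpy) animal. Their transcripts are known to appear in a pulse early in each molting cycle, and those of other collagens, such as col-12, appear late. Loss of furrows also switches on osmotic, antimicrobial and detoxification genes in the epidermis, which makes these genes known readouts of furrow state.

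The 8 arrays lay on 2 slides, each with 2 arrays of each genotype. Slide 1 held aptf-1(gk794) replicates 1 and 2 with N2 replicates 1 and 3, and slide 2 held aptf-1(gk794) replicates 3 and 4 with N2 replicates 2 and 4. The scanner software rated 72.2% to 79.7% of an array's spots as well above background, and 0 spots were saturated. On each slide the mutant arrays held positions 3 and 4 and the N2 arrays positions 1 and 2, so position on the slide and genotype cannot be told apart. The first principal component, with 35.9% of the variance, set aptf-1(gk794) replicates 2 and 4 apart. The single probe of aptf-1 was well above background on 2 of 4 mutant arrays and 4 of 4 N2 arrays, at -5.96, -7.22, -4.29 and -7.13 in aptf-1(gk794) and -5.34, -5.24, -5.18 and -5.58 in N2 on the log2 scale described below. For this probe the brightest of the 8 arrays was that labelled aptf-1(gk794) replicate 3, which goes against its label for this probe, and the difference was not significant (-0.82, exact permutation test, p = 0.314). Whether the probe lies in the deleted part of aptf-1 is not given in the sources used here. The study lists the same probe as lower in aptf-1(gk794) embryos, and does not list it among its changes in sleeping larvae. flp-11, a neuropeptide gene under the control of aptf-1, ran as labelled on all 8 arrays, at -0.71 to -0.64 on the mutant arrays, with -0.69 on replicate 3, and 0.45 to 0.60 on the N2 arrays (difference -1.18, limma, adjusted p = 0.00277, mean of 8 probes). The calls for the furrow collagens were therefore repeated without this array, and without replicates 2 and 4, as given below.

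Of the 10 furrow collagen probes, 6 stood clearly over background on each of the 8 arrays, as rated by the scanner software (60.0%, against 69.5% of all probes), 2 on some arrays and 2 on none. The 6 were the single probes of dpy-2, dpy-3 and dpy-8, 1 of 2 probes of dpy-9 and 2 of 3 probes of dpy-10. These 5 genes could be tested. Both probes of dpy-7 failed the requirement of being well above background on all 4 arrays of a genotype. Values below are log2 intensities relative to the 75th percentile of the same array, so that 0 is the intensity of a probe brighter than 75% of the others, and differences are aptf-1(gk794) minus N2.

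None of the 5 tested furrow collagens passed the test for a change between the genotypes. A gene was called where limma gave an adjusted p under 0.05 and the change was at least 1.5-fold. 0 of 5 were called, where 11 of the 18301 tested genes were (0.0601%), and 0 of the 6 tested probes were called, where 19 of 32007 were (0.0594%). 0 of the 5 had an unadjusted p under 0.05, where 12.2% of all genes did. In each of the 5 the arrays of the genotypes overlapped. Complete separation was seen in 3.09% of all genes with the mutant above and 4.97% with the mutant below. The differences of the 5 ran between -0.05 and 0.40 with a median of 0.21, against a median of -0.03 over all genes, and 4 of 5 were positive.

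**Figure D1:**
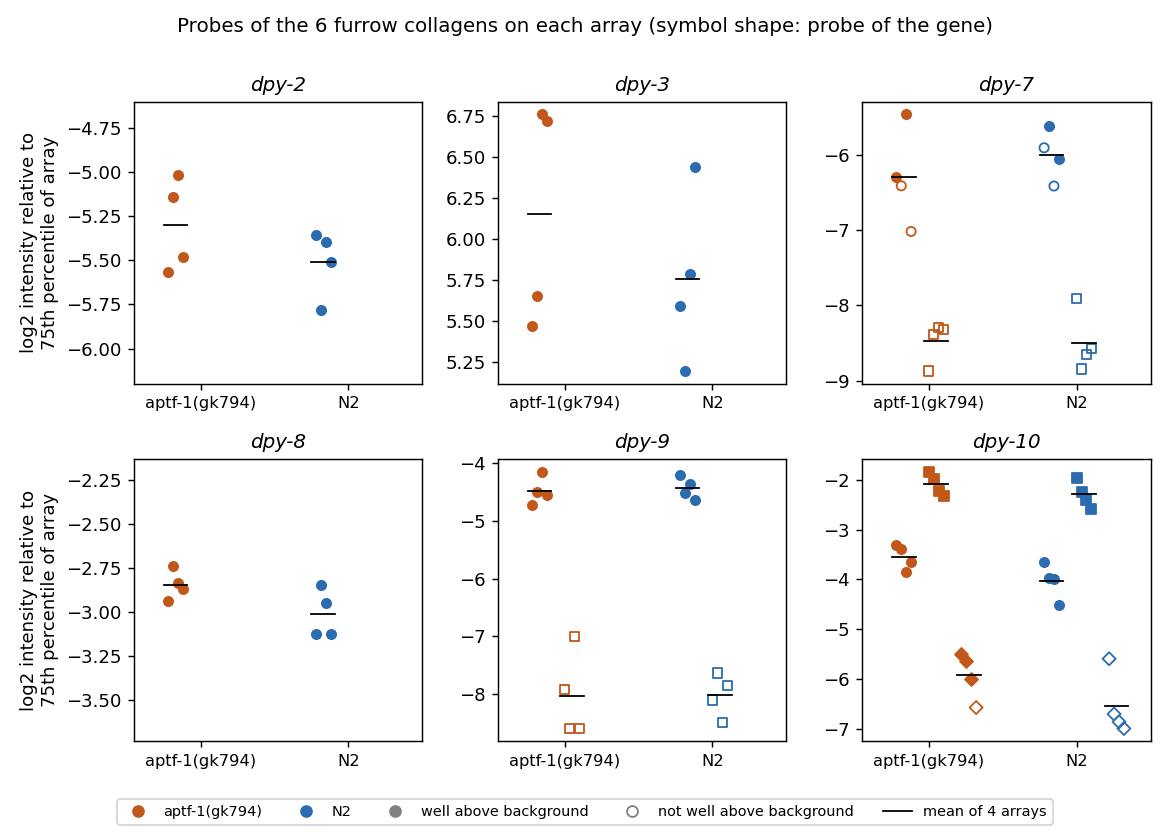
Log2 intensity of every probe of the 6 furrow collagens on each array, relative to the 75th percentile of that array, in aptf-1(gk794) (left, orange) and N2 (right, blue). Filled symbols were well above background, open symbols were not, symbol shapes separate the probes of a gene, and bars are means of 4 arrays. The genotypes overlap for all 10 probes, and dpy-3 has a pair of high mutant arrays, replicates 3 and 4.

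dpy-10, a furrow collagen known also for dominant alleles that make animals roll, came nearest to the threshold. Averaged over its 2 tested probes it measured -2.57, -2.69, -3.03 and -2.98 in aptf-1(gk794) replicates 1 to 4, and -2.80, -3.10, -3.19 and -3.54 in N2 replicates 1 to 4. Mutant replicates 1 and 2 were above all N2 arrays, while replicates 3 and 4 lay within the N2 range. The difference was 0.34 ± 0.18 (SE), or 1.27-fold, with a 95% interval of -0.06 to 0.75 (limma, adjusted p = 0.458, exact permutation test, p = 0.143). It was similar on both slides, at 0.36 on slide 1 and 0.32 on slide 2.

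The 3 probes of dpy-10 all gave higher means in the mutant but differed in size. The first tested probe averaged -3.55 ± 0.24 in aptf-1(gk794) and -4.03 ± 0.36 in N2 (SD, n = 4 each), a difference of 0.48 with an interval of 0.02 to 0.94 (limma, adjusted p = 0.424, exact permutation test, p = 0.0857). The second averaged -2.09 ± 0.22 in aptf-1(gk794) and -2.29 ± 0.26 in N2 (SD, n = 4 each), a difference of 0.20 (adjusted p = 0.603). The third was well above background on 3 of 4 mutant arrays and on 0 of 4 N2 arrays. Each N2 array was given the lowest signal that counted as well above background on it, or the probe's own signal where higher. The mean of the 4 mutant arrays was 1.41-fold above the mean of these values, with no account of spread. This is not a guaranteed minimum, since N2 replicate 1 read above the lowest such signal of its array (-5.95) without being rated well above background. Mutant replicate 4 (-6.58) was itself not well above background. The probe was not tested by limma, and its exact permutation test gave p = 0.171. Array N2 replicate 1, whose signal was -5.60 for this probe without being well above background, lay within the range of the mutant arrays.

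dpy-2 is the neighbor of dpy-10 on chromosome II, with 1 coding gene between them, and gives the same Dumpy phenotype when lost. It measured -5.57, -5.14, -5.02 and -5.48 in aptf-1(gk794), and -5.36, -5.78, -5.39 and -5.51 in N2. Mutant replicates 2 and 3 were above the N2 range and replicates 1 and 4 within it. The difference was 0.21 ± 0.15 (SE), or 1.16-fold (interval -0.15 to 0.56, limma, adjusted p = 0.565). dpy-2 and dpy-10 start within 1 Mb of aptf-1 on the same chromosome, with 65 and 63 coding genes between them and aptf-1. Of the 404 tested genes in that region, 0 were called by limma, 54 had an unadjusted p under 0.05 (12.2% of all tested genes did), and the median difference was -0.01.

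dpy-8, encoded on the X chromosome, was the steadiest of the furrow collagens. It measured -2.94, -2.74, -2.83 and -2.87 in aptf-1(gk794), and -3.12, -2.85, -2.95 and -3.13 in N2. Its spread within a genotype was 0.11 (pooled SD), below that of most genes (18.2nd percentile of all tested genes). The difference was 0.17 ± 0.09 (SE), or 1.12-fold, and the interval of -0.05 to 0.38 included 0 (limma, adjusted p = 0.480, exact permutation test, p = 0.114).

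dpy-9, on chromosome IV, was the member with the smallest difference. It measured -4.72, -4.50, -4.15 and -4.56 in aptf-1(gk794), and -4.21, -4.52, -4.36 and -4.64 in N2. Mutant replicate 3 was the highest of the 8 arrays and mutant replicate 1 the lowest. The difference was -0.05 ± 0.15 (SE; interval -0.38 to 0.29, limma, adjusted p = 0.895), with -0.32 on slide 1 and 0.23 on slide 2. The difference between slides was not significant (interaction term, limma, adjusted p = 0.999). The second probe of dpy-9 was not well above background on any of the 8 arrays. For dpy-2, dpy-8 and dpy-9 the intervals lay within a 1.5-fold change (0.58 on the log2 scale) in either direction, and for dpy-3 and dpy-10 they did not. The tested probes of dpy-2 and dpy-9 were dim, at -5.78 to -5.02 and -4.72 to -4.15 over the arrays. The lowest signal rated well above background was between -6.93 and -5.95, depending on the array.

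dpy-7, the furrow collagen whose protein is most often used to mark furrows, lay near background. Its first probe gave -6.29, -6.41, -5.46 and -7.02 in aptf-1(gk794), and -5.90, -5.60, -6.41 and -6.05 in N2. It was well above background on mutant replicates 1 and 3 and N2 replicates 2 and 4 only. The other probe did not rise well above background on a single array. The mean of both differed by -0.14 between the genotypes, by -0.020 under quantile normalization and by 0.043 under normexp, so that its direction depended on the scaling. When all probes were fitted without a filter the adjusted p was 0.849 (limma).

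dpy-3, on the X chromosome, varied most among the 5. It measured 5.47, 5.65, 6.76 and 6.72 in aptf-1(gk794), and 5.59, 5.19, 5.78 and 6.44 in N2. Its single probe was far brighter than the other tested furrow collagens, whose genotype means ran between -5.51 and -2.82. Mutant replicates 3 and 4 and N2 replicate 4, all on slide 2, were the high arrays, and N2 replicate 2, on the same slide, was the lowest. The difference was 0.40 ± 0.38 (SE), or 1.32-fold (interval -0.47 to 1.27, limma, adjusted p = 0.645). The spread within a genotype was 0.61 (pooled SD, 90.6th percentile of all tested genes), against a median of 0.20 over all genes and 0.11 to 0.27 for the other furrow collagens.

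**Figure D2:**
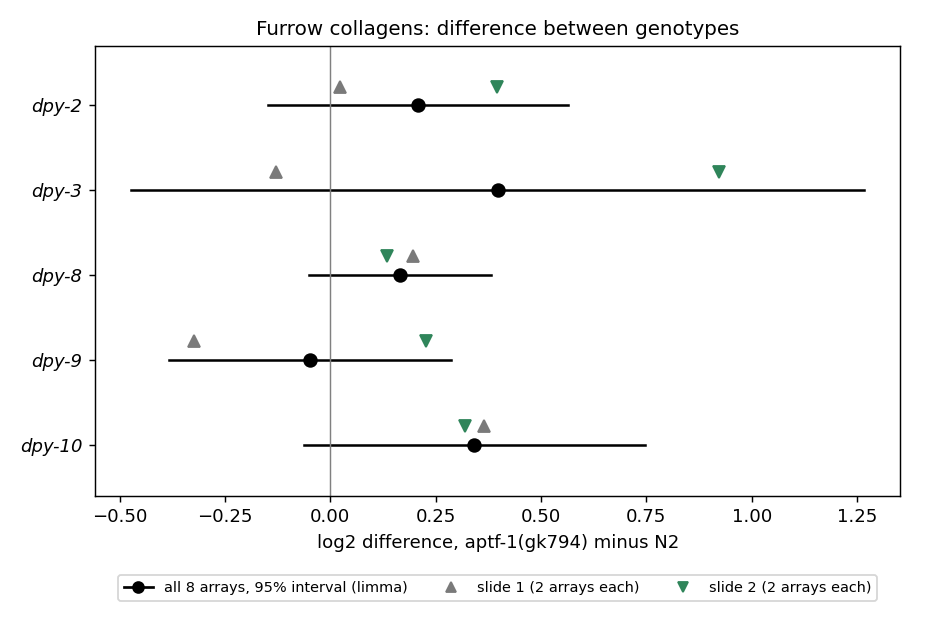
Log2 difference of the 5 tested furrow collagens, aptf-1(gk794) minus N2. Black points and bars are the difference over all 8 arrays with its 95% interval from limma, and triangles are the differences within each slide (2 arrays of each genotype). All 5 intervals include 0, and dpy-3 and dpy-9 have opposite signs on the slides.

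For dpy-3 the direction differed between the slides, with -0.13 on slide 1 and 0.92 on slide 2, and the interaction was not significant (1.05, limma, adjusted p = 0.999). For dpy-2 the differences were 0.02 on slide 1 and 0.39 on slide 2, and for dpy-8 they were 0.20 and 0.13 in that order. The slides themselves differed most for dpy-3, by 0.65 (slide 2 minus slide 1), and for dpy-10, by -0.35, with an adjusted p of 0.999 for both (limma). With mutant replicate 3 left out, the difference of dpy-3 was 0.19, that of dpy-2 0.11, that of dpy-9 -0.16, that of dpy-10 0.41 and that of dpy-8 0.16. Without mutant replicates 2 and 4 these differences were 0.36, 0.22, -0.00339, 0.51 and 0.12 in the same order. 0 furrow collagens were called in either case.

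The furrow collagens did not move as a group from array to array, and the part of dim signal in this was not tested. After the mean of each genotype was subtracted, 8 of the 10 pairs of tested members had correlations between -0.35 and 0.36 over the 8 arrays. dpy-2 and dpy-9 varied in the same direction (Pearson r = 0.79, Spearman rho = 0.81, exact permutation within genotypes, p = 0.0312 for r and 0.0208 for rho, adjusted p = 0.156 for both over 10 pairs). dpy-3 and dpy-10 varied in opposite directions (r = -0.83, rho = -0.83, exact permutation, p = 0.0295 for r and 0.0312 for rho, adjusted p = 0.156 for both). Neither passed the adjustment. Leaving out the 2 arrays farthest from the median of the first-named gene gave r = 0.74 for dpy-2 with dpy-9 and -0.65 for dpy-3 with dpy-10. With slide means also removed r was 0.74 and -0.84 in that order, and a slide held too few arrays of a genotype for a value of its own. With genotype means left in, r was -0.41 for dpy-3 with dpy-10 and 0.63 for dpy-2 with dpy-9.

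Among the named collagens, the highest correlations of dpy-3 were instead with collagens outside the furrow group, and none passed the adjustment over all 8 arrays. These were dpy-13 and dpy-5, collagens associated with the annuli between furrows, and dpy-4, another body-shape collagen. dpy-13 was named by rule, and dpy-4, dpy-5 and col-7 were chosen here after their values were seen. dpy-13 measured 6.03, 5.77, 7.54 and 7.25 in aptf-1(gk794), and 6.26, 5.34, 6.41 and 7.44 in N2. As for dpy-3, mutant replicates 3 and 4 and N2 replicate 4 were the high arrays. The second principal component, with 28.8% of the variance, placed the same arrays at one end (-64.1, -34.9 and -22.5). Of 5875 genes with a mean log2 intensity above 0, the closest to dpy-3 were F22B8.7 (r = 0.99), col-38 (0.99), nuo-1 (0.98), ZK154.1 (0.98) and col-138 (0.98). The most opposite was prcc-1 (-0.99). These genes are the extremes of a ranking over 8 arrays, given without a test, and serve as a description only.

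Among 16 other named collagens, the correlation with dpy-3 within genotypes was r = 0.97 and rho = 0.93 for dpy-13, and the same for dpy-5. It was r = 0.91 and rho = 0.90 for dpy-4. The exact permutation test gave p = 0.0139 for dpy-13, 0.00694 for dpy-5 and 0.0156 for dpy-4 for r, and 0.0174 for rho in each, and after adjustment over the 16 collagens all were 0.05 for r and 0.0926 for rho. The adjusted values did not fall below 0.05. Leaving out the 2 arrays farthest in dpy-3 left r at 0.94, 0.95 and 0.85 in that order, and removing slide means left 0.96, 0.97 and 0.85. col-19, a collagen of the adult cuticle, went the other way (r = -0.86, rho = -0.71), as did col-7 (r = -0.89, rho = -0.90), with adjusted p = 0.05 for r of both and 0.190 and 0.0972 for rho (exact permutation). Under quantile normalization and under median scaling, r of dpy-3 with dpy-13 was 0.96 and 0.97.

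**Figure D3:**
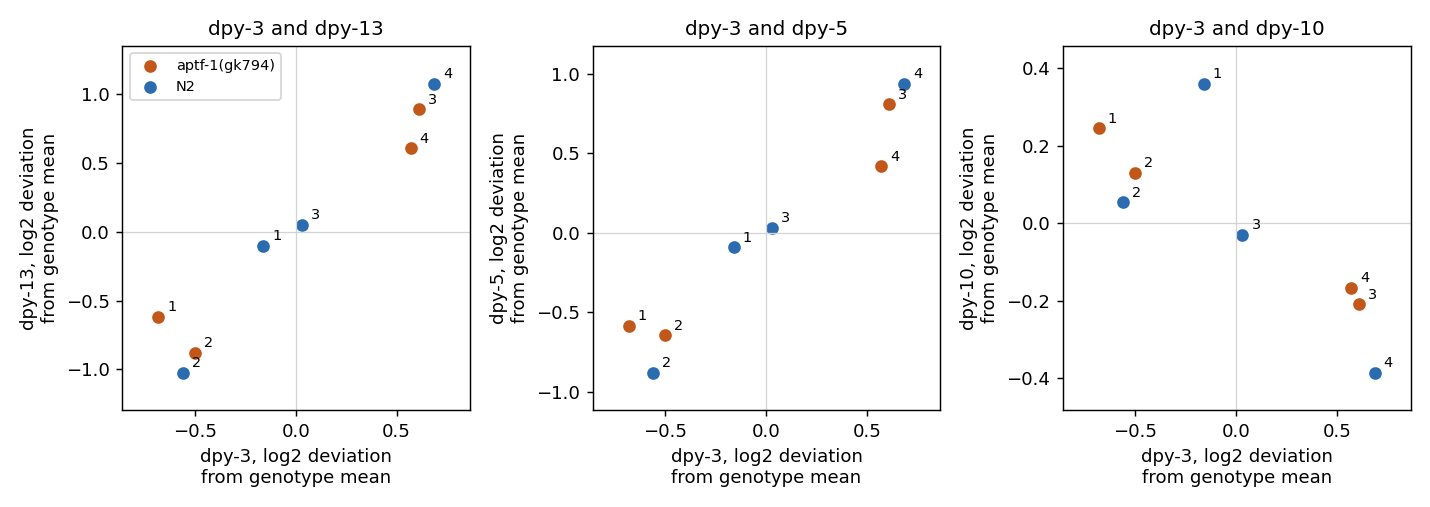
Deviation of dpy-3 on each array from the mean of its genotype (log2, x axis) against the same deviation of dpy-13, dpy-5 and dpy-10 (log2, y axis), with aptf-1(gk794) in orange, N2 in blue and the replicate number beside each point. dpy-13 (r = 0.97) and dpy-5 (r = 0.97) rise with dpy-3 and dpy-10 (r = -0.83) runs against it.

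The correlations of dpy-10 with the same 16 collagens had the opposite sign to those of dpy-3 for dpy-13 (r = -0.76, rho = -0.76, exact permutation, p = 0.0330, adjusted p = 0.125) and dpy-5 (r = -0.77, rho = -0.76, exact permutation, p = 0.0312, adjusted p = 0.125). These signs follow from r = -0.83 of dpy-3 with dpy-10 and r = 0.97 of dpy-3 with either collagen, so they are no separate result. 10 of the 16 had r below -0.6 with dpy-10, and 11 of 16 had r above 0.6 with dpy-3. These counts are not independent of the pair of dpy-3 with dpy-10 either. With slide means removed as well, 3 of 16 remained below -0.6 with dpy-10 and 3 of 16 above 0.6 with dpy-3, in both cases dpy-4, dpy-5 and dpy-13. The sign changed for 5 of 16 with dpy-3, among them sqt-1 (r = 0.65 before, -0.59 after) and lon-3 (0.65 before, -0.61 after), and for 5 of 16 with dpy-10. The values for rol-6 became -0.40 with dpy-10 and 0.41 with dpy-3. The mean of the 5 furrow collagens was tracked most closely by ant-1.4 (r = 0.99), T05D4.5 (0.97), gsp-1 (0.96), lis-1 (0.94) and B0205.10 (0.94), out of 5875 genes with a mean log2 intensity above 0. These values are the extremes of that ranking over 8 arrays and are a description only.

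The other named body-shape collagens reached larger differences between the genotypes than the furrow group, with wider spreads, and none passed the test. Of 18 such genes, 17 had probes, 16 were tested and 0 were called by limma. 12 were higher and 4 lower in the mutant, 8 had an unadjusted p under 0.05, and the median difference was 0.30 with a range of -0.38 to 3.34. Over all tested genes, 12.2% had an unadjusted p under 0.05. The median rested on single arrays. It was 0.099 without mutant replicate 3, 0.18 without mutant replicate 4 and 0.086 without N2 replicate 2, where the furrow collagens gave 0.16, 0.21 and 0.21, and it was 0.60 without mutant replicate 2, 0.50 without mutant replicate 1 and 0.64 without N2 replicate 4. Their median spread within a genotype was 0.88 (pooled SD), against 0.23 for the furrow collagens. lon-3, a collagen whose loss lengthens the body, measured -2.56, -2.12, 2.07 and 1.33 in aptf-1(gk794), and -4.88, -2.07, -4.74 and -2.95 in N2. The difference was 3.34 (limma, adjusted p = 0.348), and mutant replicates 3 and 4 stood far above the other arrays.

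The same 2 arrays were highest for rol-6, rol-8 and bli-2, as they were for dpy-3. rol-6 and rol-8, whose mutants roll, differed by 2.05 (adjusted p = 0.390) and 2.82 (adjusted p = 0.348, limma). rol-8 passed only with the slide as a block (adjusted p = 0.0444). bli-2, a collagen of the struts of the adult cuticle, differed by 2.20 (adjusted p = 0.328) and was the 1 gene of the list with all mutant arrays above all N2 arrays (3.09% of all tested genes). In dpy-13 (0.29, adjusted p = 0.822), col-12 (-0.25, adjusted p = 0.349) and col-19 (-0.37, adjusted p = 0.459) the arrays of the genotypes overlapped. bli-1 had no probe that met the requirement on detection.

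**Figure D4:**
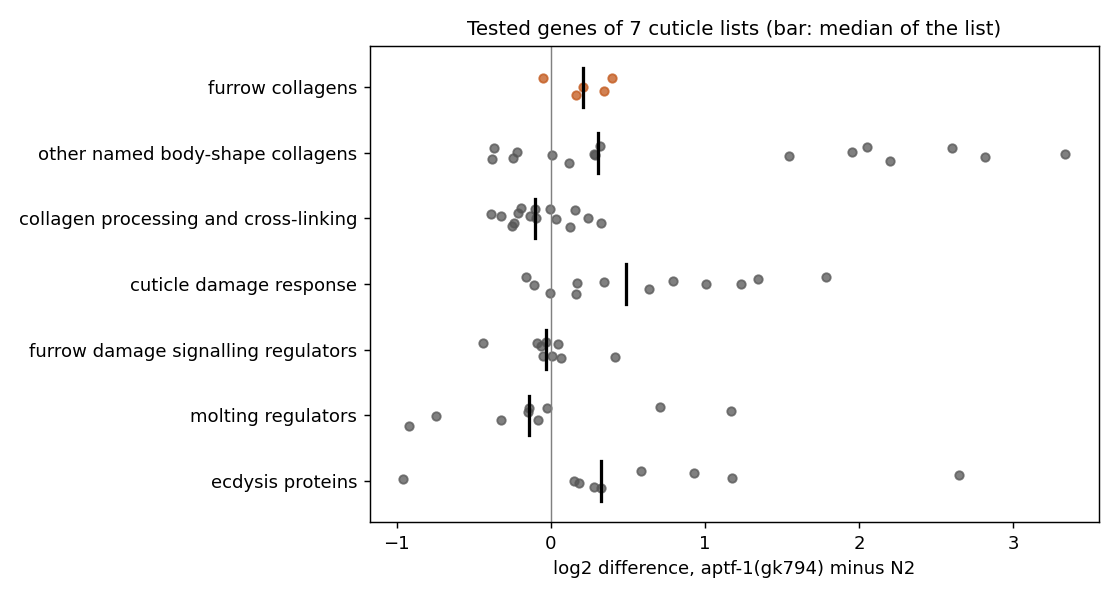
Log2 difference, aptf-1(gk794) minus N2, of each tested gene (point) in 7 lists of cuticle genes, with the median of each list as a bar. Furrow collagens lie between -0.05 and 0.40, and other body-shape collagens reach 3.34.

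Genes that process collagens or react to lost furrows were measured on the same arrays. For the counts that follow, 12.2% of all tested genes had an unadjusted p under 0.05. All mutant arrays lay below all N2 arrays in 4.97% of them and above in 3.09%. Of 15 processing and cross-linking genes, all tested, 0 were called, 5 were higher and 10 lower in the mutant, 2 had an unadjusted p under 0.05, and the median difference was -0.10. crt-1, a calcium-binding chaperone of the endoplasmic reticulum, was lower on all mutant arrays than on all N2 arrays (difference -0.24, limma, adjusted p = 0.341), and under quantile normalization the difference was -0.095. pdi-2, a protein disulfide isomerase that is also a subunit of prolyl 4-hydroxylase, differed by -0.39 (adjusted p = 0.377). bli-4, a collagen-processing protease, differed by -0.25 (adjusted p = 0.427), and dpy-18, a catalytic subunit of prolyl 4-hydroxylase, by 0.33 (adjusted p = 0.746, limma).

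Of 12 tested genes that respond to cuticle damage, 0 were called, 9 were higher and 3 lower, 4 had an unadjusted p under 0.05, and the median difference was 0.49 (0.26 to 0.77 with 1 array left out). nit-1, a nitrilase gene counted with the detoxification response, measured -2.44, -2.69, -1.77 and -2.11 in aptf-1(gk794), and -3.10, -3.06, -2.90 and -3.13 in N2. All mutant arrays were above all N2 arrays, by 0.80 on average (limma, adjusted p = 0.210). The antimicrobial peptide genes nlp-30, nlp-31 and nlp-29 differed by 1.78 (adjusted p = 0.266), 1.00 (adjusted p = 0.337) and 0.63 (adjusted p = 0.545). gpdh-1, an enzyme of glycerol synthesis induced by osmotic stress, differed by 0.16 (adjusted p = 0.881, limma). gst-4 had no probe matched to it.

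Of 9 tested regulators of the response to furrow damage, 0 were called, 1 had an unadjusted p under 0.05, and the median difference was -0.03. That gene was elt-3, a GATA factor of the epidermis, which measured 1.29, 1.12, 1.09 and 1.33 in aptf-1(gk794), and 1.65, 1.76, 1.65 and 1.54 in N2. All mutant arrays were below all N2 arrays (difference -0.44, limma, adjusted p = 0.158). osm-7, which is secreted and whose loss switches on the osmotic response, differed by 0.41 (adjusted p = 0.725), and snf-12, a transporter-like protein needed for nlp-29 induction, by 0.05 (adjusted p = 0.809, limma).

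Of 9 tested molting regulators, 0 were called, 2 were higher and 7 lower, 3 had an unadjusted p under 0.05, and the median difference was -0.14. nhr-23, a nuclear receptor that drives collagen genes of the molting cycle, did not differ beyond its spread (-0.03, limma, adjusted p = 0.921). lin-42, the worm Period homolog, was lower on all mutant arrays (-0.92, adjusted p = 0.310), as was blmp-1, a zinc finger factor of the molting cycle (-0.32, adjusted p = 0.328), while nhr-85, a further nuclear receptor, overlapped (-0.74, adjusted p = 0.339). Of 9 tested ecdysis genes, 0 were called, 8 were higher and 1 lower, 3 had an unadjusted p under 0.05, and the median difference was 0.33 (0.094 to 0.59 with 1 array left out). noah-2, an apical matrix protein, was lower on all mutant arrays (-0.96, adjusted p = 0.244) and mlt-9 higher on all of them (1.18, adjusted p = 0.391). mlt-11 (0.58, adjusted p = 0.384) and nas-37, a protease that sheds the old cuticle (0.15, adjusted p = 0.745, limma), overlapped.

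The epidermis, which makes the furrow collagens, was followed by 6 marker genes, all tested and 0 called. Their median level ran between -0.61 and -0.43 on the mutant arrays and between -0.42 and -0.34 on the N2 arrays. 2 of the 6, elt-3 and vab-10 (-0.30, adjusted p = 0.202, limma), were lower on all mutant arrays, as were 4.97% of all tested genes. In 2 of the 6 the mean was higher in the mutant, che-14 by 1.55 (adjusted p = 0.433) and lin-26 by 0.18 (adjusted p = 0.480, limma), and the arrays of the genotypes overlapped for both. On N2 replicate 1 che-14 read -7.03, below the lowest signal rated well above background there (-5.95). It thus entered the test through the mutant arrays only, where it was brighter, and its difference carries no weight. The median level of 4 intestine markers ran between 0.55 and 0.61 on mutant arrays and between 0.63 and 1.17 on N2 arrays. Markers of body wall muscle, pharynx, neurons and germline gave median differences of -0.15, 0.05, 0.05 and 0.06, and 0 were called (limma). None of the marker lists had a gene missing from the tested set. With 0 epidermal markers called, no change in epidermal RNA was established. In whole animals, cell number and RNA per cell cannot be told apart, and the part of either in the furrow collagen values was not tested.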

How the data were processed

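For 8 arrays the authors deposited linear spot intensities from the scanner software (Agilent Feature Extraction, version 10.7.3.1), and a table of processed intensities that behaves as quantile normalized. The genome build used for naming was WBcel235, from a table of RefSeq genes that matched 78.6% of the probes. Because the probes were designed on an earlier build, coordinates were left out. Control spots and outlier spots (18 to 62 per array) were left out. Background-subtracted intensities deposited per spot were turned into log2 values minus the 75th percentile of each array. Probes entered the test if all 4 arrays of at least 1 genotype were well above background, and a gene was the mean of its tested probes. limma 3.58.1 in R 4.3.3 fitted genotype alone (two-sided), adjusted by Benjamini-Hochberg over 18301 genes. Exact permutation tests used all 70 assignments (smallest p 0.0286) for differences and 576 within genotypes (smallest p 0.00174) for correlations, two-sided.

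The study describes biological samples, and the p-values measure the spread between them. The number of arrays limits the precision. The furrow members and all lists were chosen with earlier results of these data known. The genes named were the 6 members, the 3 genes of each pathway list with the smallest unadjusted p, any called gene, 14 genes fixed by name, the 5 genes most alike to the members' mean, and aptf-1. Other genes, such as dpy-4, dpy-5, col-7, sqt-1, flp-11 and the markers, fall outside this rule and were chosen with their values in view. The fit was tested on simulated data. Alternatives were other scalings, normexp (offset 50, on median signals, since no mean signal was used here), the deposited table, other filters, slide, position and replicate terms, the median of probes, and leaving out arrays. Python 3.11.15 with pandas and matplotlib read files and drew plots.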

Additional observations from a re-analysis of the deposited data

Results flagged for a closer look

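One measurement stood apart within its group of 4 arrays. For the second of the 2 probes of dpy-7, which had no array well above background, the array labelled aptf-1(gk794) replicate 1 read -8.87, and the nearest of the other mutant arrays read -8.39, a gap of 0.842 of the range of the group, past the limit of Dixon's test for 4 values. No call rests on this probe. Of 80 groups of 4 arrays checked in this way, 1 stood apart, where chance would give about 4.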

How the results depend on the processing

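The count of furrow collagens called was 0 under each of the 19 alternatives, the adjusted p of the 5 tested members ran between 0.354 and 0.996 in them (limma), and dpy-2, dpy-8 and dpy-10 kept their direction throughout. With slide and position as terms, where position overlaps with genotype, the differences of dpy-3 (-0.39) and dpy-9 (0.17) changed sign, that of dpy-7 moved to 0.53 and that of aptf-1 to 1.32. In the same fit dpy-13 (-0.57), bli-4 (0.13), nas-37 (-0.030), osm-7 (-0.51), lin-42 (0.17), nhr-85 (0.19) and noah-2 (0.052) also changed sign, and 0 genes and 0 probes were called. col-12 gave 0.0018 under normexp, -0.020 under quantile normalization and -0.016 on the deposited values, and crt-1 gave -0.079, -0.095 and -0.089 in the same order. dpy-7 gave 0.043, -0.020 and -0.0071, and 0.016 without aptf-1(gk794) replicates 2 and 4. dpy-10 had a difference of 0.13 under normexp and 0.79 with the position term. Under normexp dpy-2 gave 0.069 and dpy-8 0.072, against 0.21 and 0.17 in the main fit. Causes were not tested, beyond what fewer or more genes tested give by construction.

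Leaving out each array in turn gave 0.11 to 0.30 for dpy-2, 0.19 to 0.63 for dpy-3, -0.30 to -0.024 for dpy-7, 0.13 to 0.22 for dpy-8, -0.16 to 0.031 for dpy-9, 0.21 to 0.54 for dpy-10 and -1.44 to -0.46 for aptf-1. dpy-9 turned positive without aptf-1(gk794) replicate 1 (0.031) or without N2 replicate 1 (0.027). Likewise dpy-13 ran between -0.054 and 0.65, gpdh-1 between -0.22 and 0.43, nhr-23 between -0.079 and 0.060 and dpy-18 between -0.00286 and 0.58. r of dpy-3 ran between -0.97 and -0.67 with dpy-10 and between 0.96 and 0.99 with dpy-13, and without aptf-1(gk794) replicate 1 the adjusted p of the pair with dpy-13 was 0.0370 (exact permutation). Without aptf-1(gk794) replicates 2 and 4, an alternative chosen after seeing the data, aptf-1 was at 0.21 and gpdh-1 at -0.029, and 0 genes and 0 probes were called.

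Over all genes, 11 were called and 7 with median scaling, 2 without a filter and 24 with detection on all 8 arrays, 2 to 5 without single arrays. The count of probes called was 19, and it was 12 without a filter and 4 to 10 without single arrays. The study does not say whether same-numbered samples were collected as pairs, and the main fit did not pair them. Once the genotype mean was subtracted from each probe, the correlation of same-numbered arrays over all tested probes was -0.17, 0.24, 0.15 and 0.18. These values cannot settle the question. Without that subtraction, arrays of different genotypes correlated at 0.968 to 0.990. With a replicate block, 0 genes and 0 probes were called, 0 members among them, and dpy-10 had a difference of 0.34 (limma, adjusted p = 0.354). The SE was 0.19 for dpy-3 (0.38 in the main fit) and 0.10 for dpy-10 (0.18). It was 0.080 for dpy-8 (0.093), 0.144 for dpy-9 (0.145) and 0.164 for dpy-2 (0.154). With genotype means subtracted, the strongest correlation of mutant replicates 1 to 4 was with N2 replicates 3, 1, 4 and 4. aptf-1 and dpy-7 had no tested probe with detection on all 8 arrays, so those values were not run, and the median of probes does not apply to counts of probes. Signal over background limits dpy-7 and 1 probe each of dpy-9 and dpy-10. The tested probes of dpy-2 and dpy-9 were also dim.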
